A study of Mus musculus with 6 samples.

Results

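The comparison set cells returned from a long TGF-β treatment against cells that were never treated. It used 4 of the series' 6 arrays, chosen by the treatment given in the sample titles, setting the 2 arrays of withdrawn cells against the 2 arrays of vehicle-treated controls. All groups were NMuMG cells, an immortalised line of epithelial cells taken from the mammary gland of a normal mouse, grown in medium with serum, antibiotics and insulin. Control cells received vehicle. Withdrawn cells received TGF-β at 4 ng/ml for 11 days and were then kept without it for 13 days. The other 2 arrays, of cells taken after the 11 days of TGF-β, entered the fit to share its estimate of the spread, and their values are given beside the results. Whether the 2 arrays of a group are of separate cultures is not given in the labels, and the p-values then measure no more than the spread between these samples, possibly a technical one. The labels also do not give the age or density of the control cultures, so the effect of the earlier TGF-β and of the added days in culture cannot be told apart. A further label field calls the withdrawal arrays cells going through the mesenchymal transition and the TGF-β arrays cells past the return, opposite to the titles and treatment entries, which were followed here. Tagln, an actin-binding protein of contractile cells that TGF-β is known to induce, stood at 12.69 and 12.61 on the arrays titled TGF-β and at 6.97 and 6.82 on those titled withdrawal, as log2 levels.

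TGF-β is a secreted cytokine that binds a receptor kinase pair and acts through Smad transcription factors. In mammary epithelial cells it drives the epithelial-mesenchymal transition, in which cells lose junctions and polarity, gain contractile and matrix genes and become motile. NMuMG cells are widely used as a model in which the change reverses once TGF-β is taken away, a mesenchymal-epithelial transition.

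Expression is given as log2 levels on arrays that read mainly the 3′ end of transcripts, so a log2 difference of 1 is a doubling. A gene was called when limma's Benjamini-Hochberg adjusted p, over all 18193 genes, was under 0.05. Returned and control cells differed in 8235 genes (45.3%), of which 3943 were higher after withdrawal (21.7% of all genes) and 4292 lower (23.6%). The differences reached at least 1 for 920 higher genes (5.06%) and 634 lower genes (3.48%). The median absolute log2 difference between the groups was 0.203, against 0.0665 within the control group and 0.0814 within the withdrawal group, and the median standard error of a difference (2 arrays against 2) was 0.0701. The median difference over all genes was -0.04. Array medians lay between 5.77 and 5.79, and a level near 4 or 5 was not separated from background here. A difference from such a level may be understated, so it is given as measured, without a fold or a rank. RMA sets all arrays to one distribution. Spike RNAs added before labelling (poly-A spikes) and before hybridization give other scalings. Under them the median of all genes moved to -0.18 and -0.42, and higher genes made up 34.5% and 11.6% of the calls, in place of 47.9%. The poly-A spikes differed by 0.301 between the 2 control arrays, more than the 0.140 between withdrawal and control, so that scaling is uncertain. The hybridization spikes differed by 0.185 between the 2 withdrawal arrays, against 0.377 between the groups. Below, the median log2 difference of a list is followed by its values with poly-A and hybridization spike scaling, in that order, and by its counts with the latter. Spike scaling moves all genes of an array by the same amount, so an error in it is shared by all genes. The adjusted p-values behind those counts do not allow for that. The counts of every list are to be read against the 21.7% higher and 23.6% lower of all genes, and no list was tested. Genes with several probe sets were read from the brightest, and where the mean of the probe sets, or leaving out those of shared or repeated sequence, moves a gene's difference by over 1.5 times, the value is given in its paragraph. Of the control probe sets, those for 18S ribosomal RNA were higher after withdrawal by 0.683 to 1.17. The 3′ over 5′ signal of β-actin was 0.34 to 0.36 on the withdrawal arrays and 0.17 to 0.18 on the control arrays (log2). That of Gapdh hardly differed, at -0.14 and -0.14 on the withdrawal arrays and -0.17 and -0.18 on the control arrays. The part of these signals in the results was not tested.

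E-cadherin and the contractile markers Tagln and Acta2 were close to control again, while some other contractile genes differed from it more. Cdh1, the adherens junction protein E-cadherin, stood at 11.99 and 11.89 on the control arrays, 8.37 and 8.25 under TGF-β and 11.80 and 11.79 after withdrawal. The withdrawal and control levels of Cdh1 did not differ past the threshold (log2 difference -0.14 ± 0.0658 SE, adjusted p = 0.136). Tagln was at 6.89 and 6.92 in control and at the withdrawal level above, a difference of -0.01 (adjusted p = 0.946). Acta2, smooth muscle α-actin, stood at 8.81 and 8.80 on the control arrays, 13.63 and 13.61 under TGF-β and 8.08 and 8.20 after withdrawal. Its withdrawal arrays lay below both control arrays (difference -0.67, adjusted p = 0.000247), although with probe sets of shared or repeated sequence left out the difference was -0.08 and did not pass. Of 32 measured actin and contractile genes, 11 were higher, 7 lower and 14 did not pass, against 21.7% and 23.6% of all genes (median 0.07, and -0.07 and -0.31 with the spike scalings, the last with 4 higher and 17 lower). Vcl, the focal adhesion protein vinculin, and Myl9, a myosin light chain, were higher by 1.10 and 1.03, while Tagln2 fell by 0.99. Acta2 differed by -0.29 as the mean of probe sets.

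Junction genes were divided. Of 32 measured adherens, tight junction and desmosome genes, 10 were lower, 7 higher and 15 did not pass (median -0.05, and -0.19 and -0.42 with the spike scalings, the last with 2 higher and 24 lower). Thus 53.1% passed, against 45.3% of all genes, where 23.6% were lower and 21.7% higher. Dsg2, the desmosomal cadherin desmoglein 2, stood at 10.65 and 10.63 on the control arrays, 7.08 and 7.05 under TGF-β and 7.92 and 7.91 after withdrawal, so most of its loss under TGF-β was still present (withdrawal minus control -2.73 ± 0.0489 SE, adjusted p = 2.22e-06). The desmosomal plaque genes Dsp and Ppl were also lower (-0.67 and -0.70), whereas the plakoglobin gene Jup was higher by 0.75. Cldn4, a tight junction claudin, stood at 5.88 and 5.39 on the control arrays, 10.06 and 10.07 under TGF-β and 7.83 and 7.92 after withdrawal, between its control and TGF-β levels (adjusted p = 8.24e-05 against control). Ocln, the tight junction protein occludin, differed from control by -0.36 and did not pass (adjusted p = 0.0936). Among polarity genes, Pard6b was lower (-0.93) and Dlg3 higher by 1.66, and of 17 measured, 6 were higher and 5 lower (median -0.10, and -0.24 and -0.47 with the spike scalings, the last with 1 higher and 11 lower). Dsg2 differed by -1.74 as the mean of probe sets.

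Keratins, the intermediate filaments of epithelia, were lower. Of 13 measured, 9 were lower by limma's adjusted p and 0 higher, with 0 higher at an unadjusted p under 0.05 as well (median -0.40, and -0.54 and -0.77 with the spike scalings, the last with 0 higher and 11 lower). Krt7, a keratin of simple ductal epithelia, fell from 10.14 and 10.31 on the control arrays to 5.45 and 5.60 after withdrawal (log2 difference -4.70 ± 0.0833 SE, adjusted p = 2.22e-06). On the TGF-β arrays Krt7 was still at 9.74 and 9.69, so the drop lay between the TGF-β and withdrawal samples (difference -4.18, adjusted p = 2.62e-06). Krt20 stood at 10.66 and 10.66 on the control arrays, 8.18 and 8.21 under TGF-β and 8.50 and 8.45 after withdrawal, near its TGF-β level. The simple keratins Krt8, Krt18 and Krt19 were lower (-0.94, -0.53 and -0.89). The epithelial markers Epcam and Cldn7 did not pass (-0.07 and 0.07), with Epcam at 6.92 and 7.08 in control and 6.98 and 6.87 after withdrawal. The epithelial splicing factor Esrp1 was at 4.65 and 4.63 in control and did not pass (-0.23, adjusted p = 0.107).

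**Figure D1:**
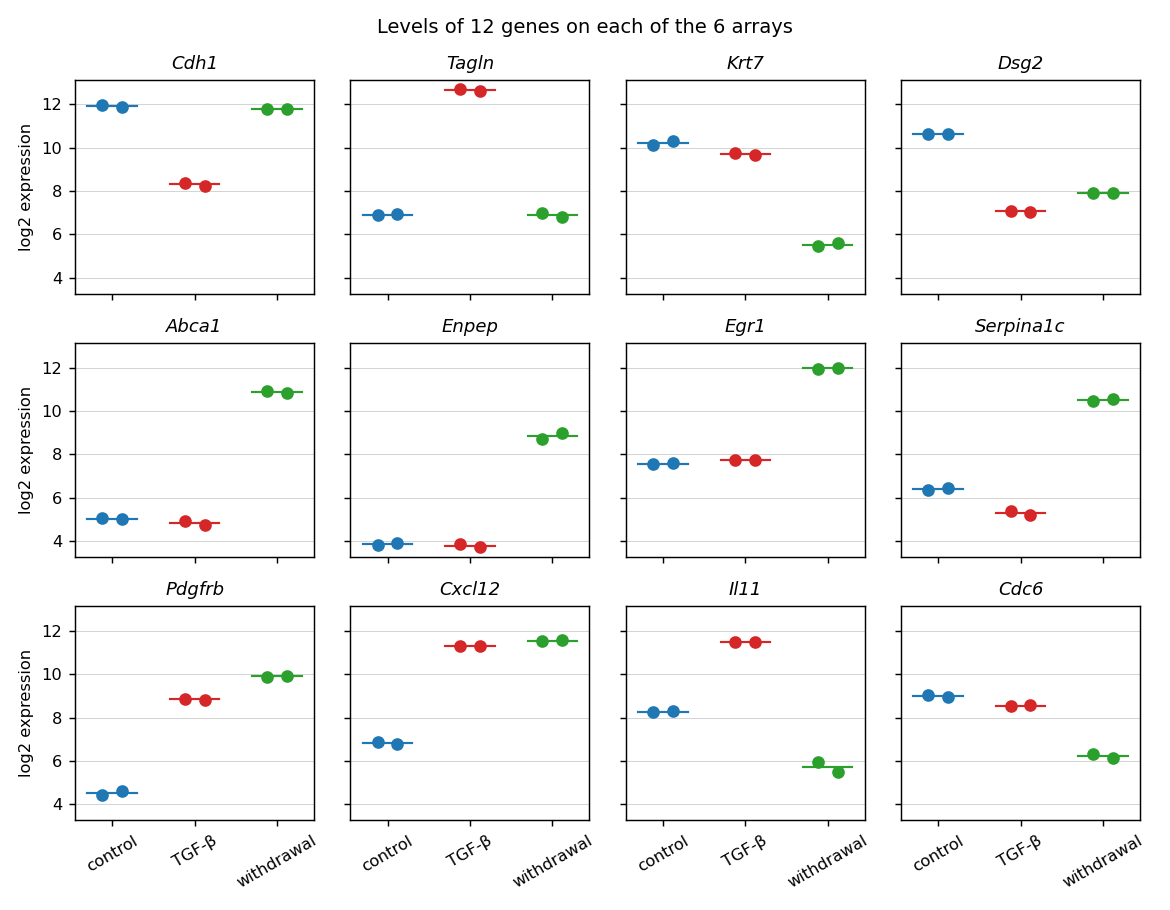
Log2 expression (vertical axis) of 12 genes on each of the 6 arrays, with 1 point per array and a line at the mean of the 2 arrays of a group. Cdh1 and Tagln are at similar levels in control and withdrawal, Krt7, Cdc6 and Il11 are lowest after withdrawal, Abca1, Enpep, Egr1 and Serpina1c are high only on the withdrawal arrays of these 6, and Pdgfrb and Cxcl12 are high on both treated groups.

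Several genes that anchor epithelium to its basement membrane were lower. Itgb6, an epithelial integrin subunit that activates latent TGF-β, stood at 7.74 and 7.80 on the control arrays, 6.72 and 6.75 under TGF-β and 5.26 and 5.58 after withdrawal (adjusted p = 1.81e-05). Itga6 and Lamb3, parts of the hemidesmosome receptor and of its laminin ligand, were lower (-1.31 and -1.33), as was the collagen receptor subunit gene Itga2 (-1.47). Itgb5 and Itgb8, other integrin subunits that bind αv, were higher by 2.94 and 3.35. Over the whole list of 22 laminin, integrin and basement membrane genes, 8 were higher and 5 lower (median 0.13, and -0.01 and -0.25 with the spike scalings, the last with 5 higher and 10 lower). Lad1, which encodes the anchoring filament protein ladinin 1, fell by 1.79, and the cornified envelope genes Sprr1b, Sprr2h and Sbsn, the last encoding suprabasin, differed by -2.42, -2.71 and -3.08. Sprr2h belongs to a family of near-identical genes and is uncertain. Sbsn differed by -1.94 as the mean of probe sets. Sbsn differed by -0.54 without probe sets of shared or repeated sequence.

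Many mesenchymal genes were still high. Pdgfrb, the PDGF receptor of pericytes and fibroblasts, stood at 4.42 and 4.62 on the control arrays, 8.86 and 8.81 under TGF-β and 9.89 and 9.94 after withdrawal. Its withdrawal arrays lay above the TGF-β arrays, and it was far above a control level near background (log2 difference 5.40 ± 0.0776 SE, adjusted p = 2.22e-06). Cxcl12, a stromal chemokine, stood at 6.85 and 6.76 on the control arrays, 11.30 and 11.30 under TGF-β and 11.54 and 11.56 after withdrawal, close to its TGF-β level (adjusted p = 1.52e-06 against control). Of 26 measured mesenchymal adhesion and marker genes, 14 were higher and 1 lower (median 0.34, and 0.20 and -0.04 with the spike scalings, the last with 10 higher and 8 lower). The lower gene was Ncam1, at 0.99 from control under TGF-β and -0.65 after withdrawal on its brightest probe set. Another of its probe sets was higher after withdrawal by 0.41. Fibronectin (Fn1) and N-cadherin (Cdh2) were higher by 2.11 and 1.17, and the matricellular genes Thbs1 and Tnc by 2.997 and 2.44. Vimentin (Vim) differed by 0.16 (adjusted p = 0.0348), a call lost under most other settings, and by -0.21 under hybridization spike scaling. Wnt5a, which reached 9.29 and 9.24 under TGF-β, was at 6.07 and 6.14 after withdrawal and 6.07 and 6.16 in control. In bulk RNA, fewer cells expressing a gene and less RNA per cell cannot be told apart. Cxcl12 differed by 3.01 as the mean of probe sets. Pdgfrb differed by 2.15 without probe sets of shared or repeated sequence.

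Collagen-crosslinking enzymes were far above control, and the fibrillar collagen Col1a1 was close to it. Lox, the lysyl oxidase that crosslinks collagen and elastin, stood at 7.88 and 7.79 on the control arrays, 12.79 and 12.81 under TGF-β and 12.13 and 12.19 after withdrawal. Its relative Loxl1 stood at 6.16 and 5.83 on the control arrays, 9.49 and 9.40 under TGF-β and 10.59 and 10.62 after withdrawal. Both were past the threshold against control (adjusted p = 2.22e-06 and 4.32e-06). Col1a1, which encodes a chain of type I collagen, stood at 5.85 and 5.89 on the control arrays, 9.57 and 9.83 under TGF-β and 6.43 and 6.16 after withdrawal. Its difference of 0.42 from control (adjusted p = 0.0317) did not pass without the first withdrawal array, at 0.28, or without either control array, at 0.40 and 0.44. Of 33 measured collagen and collagen-modifying genes, 23 were higher, 1 lower and 9 did not pass (median 0.83, and 0.69 and 0.45 with the spike scalings, the last with 18 higher and 9 lower). Col6a1 and Col6a2, chains of the microfibrillar type VI collagen, were lower than control under TGF-β (-0.30 and -0.47) and higher than control after withdrawal (1.54 and 1.30). Col6a3, another chain of it, went the opposite way on its brightest probe set, at 0.61 under TGF-β and -0.33 after withdrawal. It was the 1 lower gene of the list. Pcolce, which enhances procollagen processing, and Col8a1 were higher by 2.91 and 3.55. The plot of collagen and mesenchymal genes sets both differences side by side, and as the comparisons share the control arrays no relation between them was tested.

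**Figure D2:**
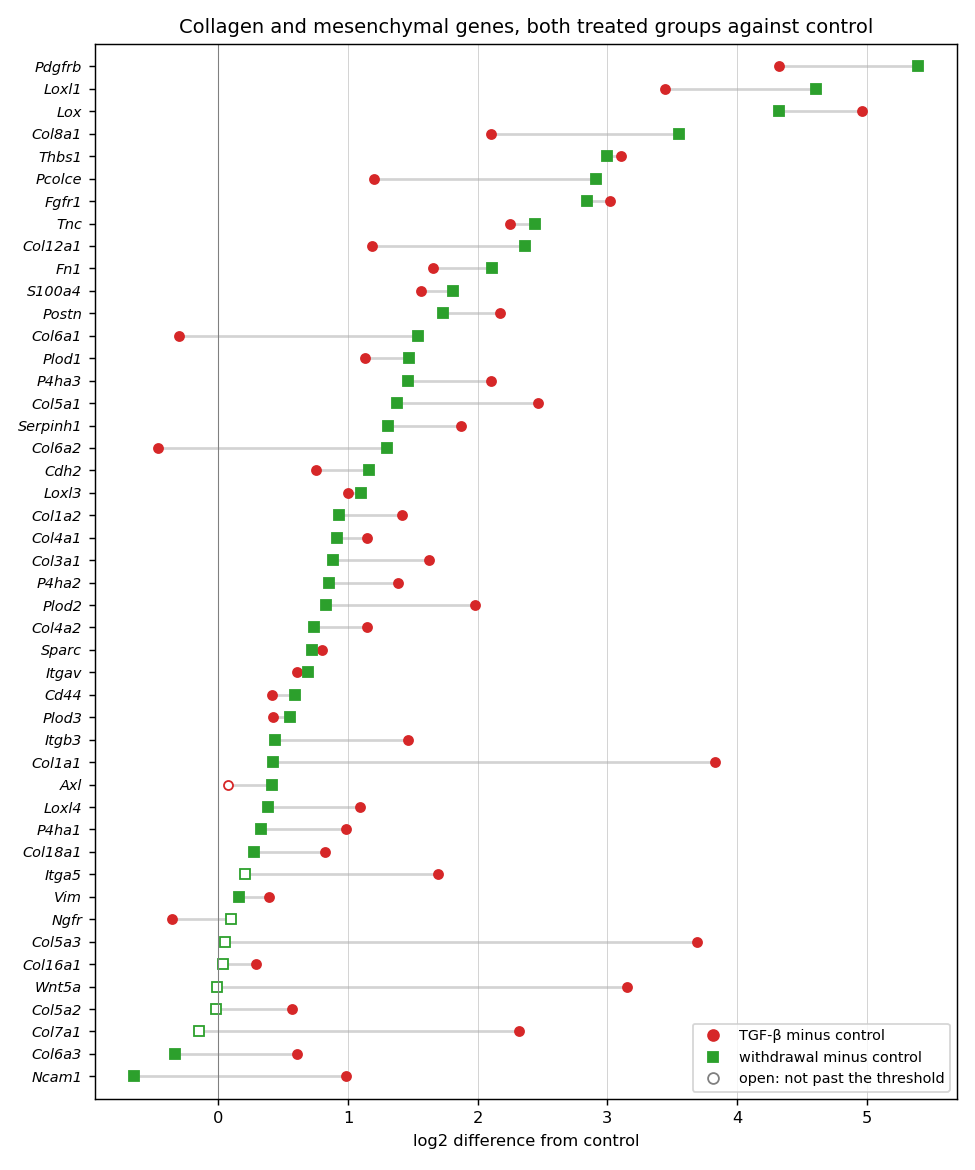
Log2 difference from control (horizontal axis) of the 46 collagen, collagen-modifying and mesenchymal genes called in at least 1 comparison, for TGF-β (circles) and for withdrawal (squares), with open symbols for differences that did not pass. Pdgfrb, Loxl1 and Lox lie above 4 in withdrawal, while Wnt5a, Col5a3 and Col7a1 are near 0 there.

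Other secreted and stromal genes were also well above control. Colec12, a scavenger receptor, stood at 4.09 and 4.10 on the control arrays, 6.43 and 6.50 under TGF-β and 9.48 and 9.37 after withdrawal. Ogn, the small proteoglycan osteoglycin, stood at 3.98 and 3.80 on the control arrays, 4.49 and 4.49 under TGF-β and 8.91 and 8.88 after withdrawal. Pamr1, a secreted protease-like protein, stood at 4.45 and 4.69 on the control arrays, 4.32 and 4.74 under TGF-β and 8.87 and 9.16 after withdrawal. Ogn and Pamr1 were high on the withdrawal arrays and low on the other 4. Mxra8 and Aebp1, a matrix-associated receptor and a collagen-binding protein, were higher than control by 4.54 and 4.47, Eya4, a transcriptional cofactor, by 5.03, and the microtubule-associated kinase gene Dclk1 by 4.44, although 1 of its other probe sets moved the opposite way by -0.35. Adamts5, a proteoglycan-cleaving protease, was higher by 4.15, while Adam8 and Adam12, membrane metalloproteinases, were lower (-2.46 and -1.45). Has2, which makes hyaluronan, stood at 5.89 and 5.89 on the control arrays, 9.48 and 9.41 under TGF-β and 4.66 and 4.78 after withdrawal, with the withdrawal arrays below control (adjusted p = 3.12e-05), and the YAP target Ccn2 was also lower (-0.77). Aebp1, Eya4, Dclk1 and Adamts5 differed by 2.84, 2.94, 2.20 and 2.08 as the mean of probe sets.

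The transcription factors known to drive the mesenchymal state were mostly higher. Of 20 measured, 14 were higher and 3 lower (median 0.71, and 0.57 and 0.33 with the spike scalings, the last with 10 higher and 5 lower). The 3 lower were Snai3, Twist2 and Hmga2, at -0.53, -0.40 and -0.22 on their brightest probe sets. Another Hmga2 probe set was higher by 1.13, and the mean of its probe sets differed by 0.05, with no call. Prrx1, a homeobox factor of mesenchyme, stood at 5.70 and 5.73 on the control arrays, 6.87 and 6.98 under TGF-β and 8.44 and 8.59 after withdrawal, above both other groups (adjusted p = 4.33e-06 against control and 1.99e-05 against TGF-β). Twist1 stood at 6.06 and 5.93 on the control arrays, 7.89 and 7.64 under TGF-β and 8.20 and 8.25 after withdrawal (adjusted p = 1.52e-05 against control). Runx1, Foxc2 and Snai2 were higher by 1.76, 1.41 and 1.15. Zeb1 and Zeb2, repressors of E-cadherin, were higher by 0.64 and 0.78, with Zeb1 not past the threshold under hybridization spike scaling. Snai1, an early TGF-β target, stood at 5.12 and 5.04 on the control arrays, 7.06 and 7.17 under TGF-β and 5.46 and 5.23 after withdrawal, and its difference from control of 0.27 did not pass (adjusted p = 0.0601). The returned cells thus had E-cadherin at a level not distinguished from control together with higher Zeb, Twist1 and Prrx1 transcripts. Prrx1, Runx1 and Zeb1 differed by 1.82, 0.83 and 0.32 as the mean of probe sets.

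Within the TGF-β pathway, all 3 TGF-β ligand genes and the type II receptor gene were higher, and feedback genes were mixed. The ligand genes Tgfb1, Tgfb2 and Tgfb3 were higher by 1.14, 0.83 and 1.48. The type II receptor gene Tgfbr2 stood at 10.001 and 9.99 on the control arrays, 10.64 and 10.69 under TGF-β and 11.67 and 11.62 after withdrawal (adjusted p = 6.91e-06). Inhbb, the activin βB subunit, fell by 1.87. The inhibitory Smad7 did not differ past the threshold (-0.04, adjusted p = 0.665). Pmepa1, a feedback inhibitor, fell by 0.66 on its brightest probe set and was higher by 0.37 on another. Fstl1, an extracellular activin- and BMP-binding protein, was higher by 2.84. Of the 33 measured pathway genes, 16 were higher and 6 lower (median 0.16, and 0.02 and -0.22 with the spike scalings, the last with 8 higher and 16 lower). Tgfb1, Tgfbr2 and Pmepa1 differed by 0.55, 0.71 and -0.33 as the mean of probe sets.

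BMP signalling opposes TGF-β in epithelia and sustains the Id inhibitors of differentiation. Id1 stood at 11.62 and 11.65 on the control arrays, 9.08 and 9.12 under TGF-β and 10.23 and 10.30 after withdrawal. Id2 stood at 12.72 and 12.66 on the control arrays, 7.40 and 7.23 under TGF-β and 11.35 and 11.26 after withdrawal. Both were above their TGF-β levels and below control (adjusted p = 1.23e-05 and 3.45e-05). Bmp4, a BMP ligand, stood at 7.57 and 7.63 on the control arrays, 5.95 and 5.79 under TGF-β and 9.46 and 9.40 after withdrawal, below control under TGF-β and above it after withdrawal (adjusted p = 1.24e-05). The receptor gene Bmpr2 was higher by 1.03. Of 21 measured BMP and Id genes, 7 were higher and 6 lower (median -0.12, and -0.26 and -0.50 with the spike scalings, the last with 5 higher and 13 lower). Bmpr2 differed by 0.62 as the mean of probe sets. Id2 differed by -2.37 without probe sets of shared or repeated sequence.

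Abca1, the membrane pump that hands cellular cholesterol to apolipoproteins, stood at 5.05 and 5.01 on the control arrays, 4.93 and 4.72 under TGF-β and 10.94 and 10.83 after withdrawal. The withdrawal arrays were far above the other 4, which lay near background (log2 difference from control 5.86 ± 0.0859 SE, adjusted p = 2.22e-06, and 2.22 as the mean of its 3 probe sets), with a log2 difference of 6.06 from TGF-β (adjusted p = 1.01e-06). Abca1 and the lipogenic regulator Srebf1 are known targets of the liver X receptors (LXR), nuclear receptors for oxidised cholesterol. An LXR-type repeat, GGTTAC followed after 4 bases by GGTCA, was searched on both strands of RefSeq windows. Each window ran from 250 bases before to 50 bases after a gene's start. The repeat was in 7 of 14452 genes with a window (0.0484%), Abca1 and Srebf1 among them. It was in 2 of 11 LXR and efflux genes with a window (18.2%), and the repeats of GGTCA at 4 bases were in 0 of 11. As Abca1 and Srebf1 are known LXR targets, their holding the repeat tests nothing. The stretches around it are shown because the 2 genes hold the same pattern and differed in their measured change. Levels were read per gene from the brightest probe set and were not tied to the start site of the window shown. Capitals mark the pattern, which both genes hold as its reverse complement, at chr4:53159923-53159987 and chr11:60210614-60210678 of GRCm38.p6, both on the minus strand.
Abca1: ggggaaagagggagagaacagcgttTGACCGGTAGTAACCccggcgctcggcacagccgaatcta
Srebf1: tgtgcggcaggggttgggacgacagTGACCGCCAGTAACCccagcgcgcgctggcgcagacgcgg
Srebf1 was at 10.16 and 10.12 in control and 10.13 and 10.10 after withdrawal, a log2 difference of -0.03 (adjusted p = 0.717). A match of letters is a description and not a binding site.

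Other genes of cholesterol export and handling were in part higher. Of 19 measured LXR and efflux genes, 10 were higher, 1 lower and 8 did not pass (median 0.23, and 0.09 and -0.15 with the spike scalings, the last with 7 higher and 9 lower). Scd1, a fatty acid desaturase, and Pltp, a phospholipid transfer protein, were higher by 2.99 and 2.76, and the lysosomal cholesterol carriers Npc1 and Npc2 by 1.17 and 1.15. Abcg1, another LXR target, was lower (-0.29), and not past the threshold as the mean of its probe sets (-0.13). Cholesterol synthesis genes were lower. Of 20 measured, 15 were lower and 1 higher (median -0.39, and -0.53 and -0.76 with the spike scalings, the last with 0 higher and 19 lower), with the mevalonate pathway genes Fdps, Idi1 and Hmgcs1 among them (-1.05, -0.94 and -0.78). Insig1, the retention protein of the sterol sensor, was the 1 higher gene (0.31, and -0.07 with hybridization spike scaling). Its call was lost without either control array (0.33 and 0.29) or the second withdrawal array (0.23). Fatty acid handling was split, with the lipid droplet coat genes Plin4 and Plin3 higher by 4.10 and 1.47 and the fatty acid carrier Fabp5 lower (-1.75). Fdps differed by -0.51 as the mean of probe sets.

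Lysosomal genes were higher almost throughout. Hexa, a hydrolase that degrades gangliosides, stood at 8.11 and 7.91 on the control arrays, 8.90 and 8.82 under TGF-β and 11.46 and 11.47 after withdrawal (withdrawal minus control 3.46 ± 0.0793 SE, adjusted p = 3.9e-06). Mcoln1, the lysosomal calcium channel, stood at 8.75 and 8.80 on the control arrays, 8.89 and 8.90 under TGF-β and 11.15 and 11.14 after withdrawal. Ctsa, a protective carboxypeptidase, stood at 10.38 and 10.40 on the control arrays, 10.71 and 10.68 under TGF-β and 12.76 and 12.81 after withdrawal. For these genes the withdrawal arrays were above all other arrays. Of 28 measured lysosome and proton pump genes, 26 were higher, 0 lower (0 at an unadjusted p under 0.05) and 2 did not pass by limma's adjusted p (median 1.24, and 1.10 and 0.86 with the spike scalings, the last with 20 higher and 1 lower), against a background of 21.7% higher genes. The genes that did not pass were the protease gene Ctsl (0.02) and the lysosomal master regulator Tfeb (0.18). Its relatives Tfe3 and Mitf were higher by 0.55 and 0.30, both not past the threshold with either spike scaling, and Mitf also not without the first control array (0.21) or the second withdrawal array (0.26). The membrane proteins Lamp1 and Lamp2 were higher by 1.24 and 1.87, the proton pump subunits Atp6v0a1 and Atp6v1a by 1.84 and 1.24, and acid glucosidase (Gaa) by 2.40. Atp6v0a1 differed by 0.74 as the mean of probe sets. Mcoln1 differed by 1.12 without probe sets of shared or repeated sequence.

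Many lysosomal genes are known to share an E-box of the form TCACGTG, bound by the factors of the Tfeb family. In the RefSeq windows, searched on both strands, 10 of the 24 lysosomal genes with a window held it (41.7%), against 838 of 14452 genes (5.8%). As lysosomal genes are already known for this element, the share tests nothing. Stretches of 4 of the 10 are shown to let the element be compared, at chr2:164833735-164833772 for Ctsa, chr11:119267797-119267853 for Gaa, chr11:101069995-101070051 for Naglu and chr9:114401004-114401060 for Glb1, all on the plus strand of GRCm38.p6, with the pattern in capitals.
Ctsa: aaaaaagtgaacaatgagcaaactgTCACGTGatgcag
Gaa: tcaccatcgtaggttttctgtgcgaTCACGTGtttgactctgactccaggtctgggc
Naglu: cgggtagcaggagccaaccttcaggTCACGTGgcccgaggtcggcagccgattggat
Glb1: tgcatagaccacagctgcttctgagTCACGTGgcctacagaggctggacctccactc
The genes shown were higher after withdrawal by 2.39, 2.40, 1.48 and 1.40. Hexa, with the largest difference of the list, held no such match in its window, which says only that these letters are not there.

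**Figure D3:**
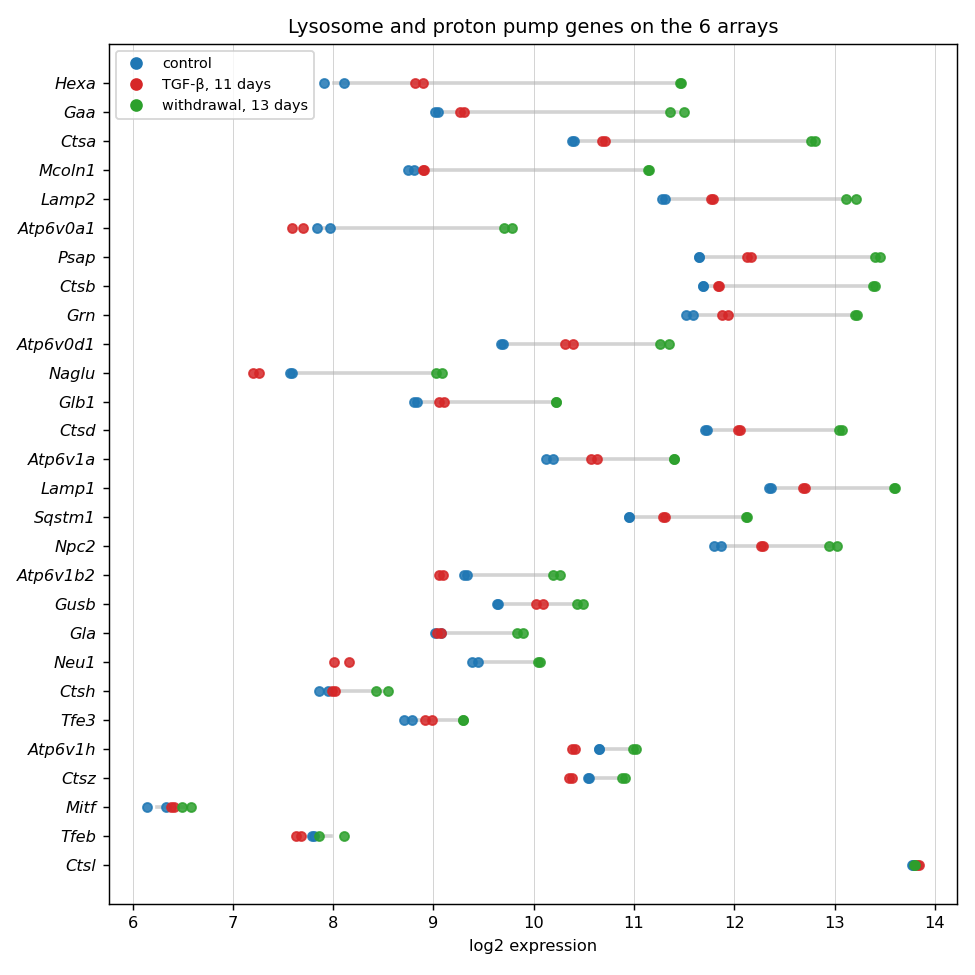
Log2 expression (horizontal axis) of the 28 measured lysosome and proton pump genes (vertical axis) on each of the 6 arrays, coloured by group, with a grey bar from the control mean to the withdrawal mean, in order of the difference. Hexa leads with a difference of 3.46, and Tfeb and Ctsl, which did not pass, lie at the other end.

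Cell division genes were lower as a whole. Of 31 measured mitosis genes, 31 were lower, 29 of them by at least 1 (median -1.78, and -1.92 and -2.15 with the spike scalings, the last with 0 higher and 31 lower), against a background of 23.6% and 3.48%. The mitotic kinase gene Aurkb stood at 9.88 and 9.89 on the control arrays, 9.40 and 9.38 under TGF-β and 7.37 and 7.57 after withdrawal. Its relative Aurka stood at 10.86 and 10.82 on the control arrays, 10.68 and 10.62 under TGF-β and 8.54 and 8.49 after withdrawal. Cdk1, which drives entry into mitosis, stood at 11.48 and 11.56 on the control arrays, 11.23 and 11.22 under TGF-β and 9.46 and 9.40 after withdrawal. The withdrawal arrays of each lay below both other groups, and the proliferation marker Mki67 fell by 1.55. In the replication list, 33 of 34 were lower and 27 by at least 1 (median -1.32, and -1.46 and -1.69 with the spike scalings, the last with 0 higher and 34 lower). Cdc6, which loads the replicative helicase, stood at 9.02 and 8.94 on the control arrays, 8.53 and 8.57 under TGF-β and 6.31 and 6.15 after withdrawal (difference -2.75 ± 0.071 SE, adjusted p = 4.48e-06), and Orc1, a subunit of the origin complex, was the 1 gene that did not pass (-0.23). Plk4, the kinase that starts centriole duplication, and Pclaf, a PCNA-binding protein, were lower (-2.53 and -2.41). Aurka, Orc1 and Pclaf differed by -1.35, -0.54 and -1.21 as the mean of probe sets.

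Mitotic genes are known for an element called CHR, of the form TTTGAA, and replication genes for E2F elements such as TTCCCGC. On both strands of the windows, 19 of 26 mitosis genes held TTTGAA (73.1%), against 2263 of 14452 genes (15.7%), and 11 of 28 replication genes held TTCCCGC (39.3%), against 1149 genes (7.95%). The E2F form TTGGCGC was in 8 of 28 replication genes (28.6%), against 620 genes (4.29%). As both groups of genes are already known for these elements, the shares test nothing. Stretches with these patterns in capitals are shown for genes that fell, at chr10:69352953-69353008 (minus strand) for Cdk1, chr4:118437344-118437386 (minus) for Cdc20, chr7:80294421-80294475 (plus) for Prc1, chr11:98907988-98908044 (plus) for Cdc6 and chr10:128015175-128015214 (plus) for Prim1, where Cdc6 carries the reverse complement.
Cdk1: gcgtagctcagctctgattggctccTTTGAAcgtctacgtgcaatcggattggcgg
Cdc20: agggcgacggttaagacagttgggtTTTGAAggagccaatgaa
Prc1: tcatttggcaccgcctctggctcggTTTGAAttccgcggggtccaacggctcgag
Cdc6: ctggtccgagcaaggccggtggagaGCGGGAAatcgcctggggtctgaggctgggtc
Prim1: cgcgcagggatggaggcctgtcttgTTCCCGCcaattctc
Cdc20, the activator of the anaphase-promoting complex, Prc1, a midzone protein of the spindle, and Prim1, a primase subunit, differed by -1.70, -1.72 and -1.71.

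Regulators of the cycle moved both ways. The E2F targets and repressors E2f8 and E2f7 and the cyclin gene Ccne2 were lower (-2.29, -1.80 and -2.21). Cdkn2a, which encodes the INK4A and ARF inhibitors and whose locus is often lost in mouse lines, stood at 8.22 and 8.26 on the control arrays, 8.75 and 8.76 under TGF-β and 10.26 and 10.34 after withdrawal (adjusted p = 4.48e-06). The pocket protein genes Rb1 and Rbl2 were higher by 1.57 and 0.88, and the inhibitor Cdkn1b by 0.63, which did not pass with hybridization spike scaling. Cdkn1a, the p21 inhibitor, was higher by 0.21, a call lost without either control array (0.22 and 0.21) or the second withdrawal array (0.20), and at -0.16 with hybridization spike scaling. Of the 22 cyclin and CDK inhibitor genes, 10 were higher and 9 lower (median -0.05, and -0.19 and -0.42 with the spike scalings, the last with 4 higher and 12 lower). Among p53 targets and apoptosis genes, 14 of 21 were higher and 3 lower (median 0.39, and 0.25 and 0.01 with the spike scalings, the last with 7 higher and 6 lower). The death receptor gene Fas and Trp53inp1, a p53 cofactor of autophagy and cell death, were higher by 2.37 and 1.67. Perp, a p53-induced desmosomal protein, stood at 9.20 and 9.28 on the control arrays, 7.93 and 7.93 under TGF-β and 11.85 and 11.76 after withdrawal, below control under TGF-β and above it after withdrawal. E2f8, Rb1, Cdkn1a and Trp53inp1 differed by -1.34, 0.92, 0.10 and 1.11 as the mean of probe sets.

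Genes linked to FoxO factors and quiescence, the resting state outside the cycle, were mostly higher. Pik3ip1, an inhibitor of PI3-kinase, stood at 5.43 and 5.62 on the control arrays, 7.41 and 7.18 under TGF-β and 9.35 and 9.37 after withdrawal (adjusted p = 4.48e-06). Mxd4, an antagonist of Myc, Hbp1, a repressor of cell cycle genes, and Foxo3 itself were higher by 2.10, 1.72 and 1.66. Of 19 measured, 14 were higher and 2 lower (median 0.99, and 0.85 and 0.62 with the spike scalings, the last with 11 higher and 5 lower). The forkhead pattern TGTTTAC was in 6 of 17 members with a window (35.3%), against 491 of 14452 genes (3.4%). The list was drawn up for its link to FoxO, a forkhead family, so this share tests nothing. Stretches of 3 are shown, with 1 gene that fell, at chr12:31950363-31950419 (minus strand) for Hbp1, chr19:53329445-53329495 (plus) for Mxi1 and chr1:130717139-130717195 (plus) for Yod1, with the pattern or its reverse complement in capitals.
Hbp1: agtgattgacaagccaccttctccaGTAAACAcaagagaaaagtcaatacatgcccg
Mxi1: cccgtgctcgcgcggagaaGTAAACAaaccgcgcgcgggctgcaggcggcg
Yod1: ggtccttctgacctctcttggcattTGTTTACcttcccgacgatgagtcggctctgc
Mxi1, also a Myc antagonist, was higher by 1.04, and Yod1, a deubiquitinase, fell by 0.44, with -0.19 and no call as the mean of its probe sets. Hbp1 and Mxi1 differed by 1.03 and 0.66 as the mean of probe sets.

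**Figure D4:**
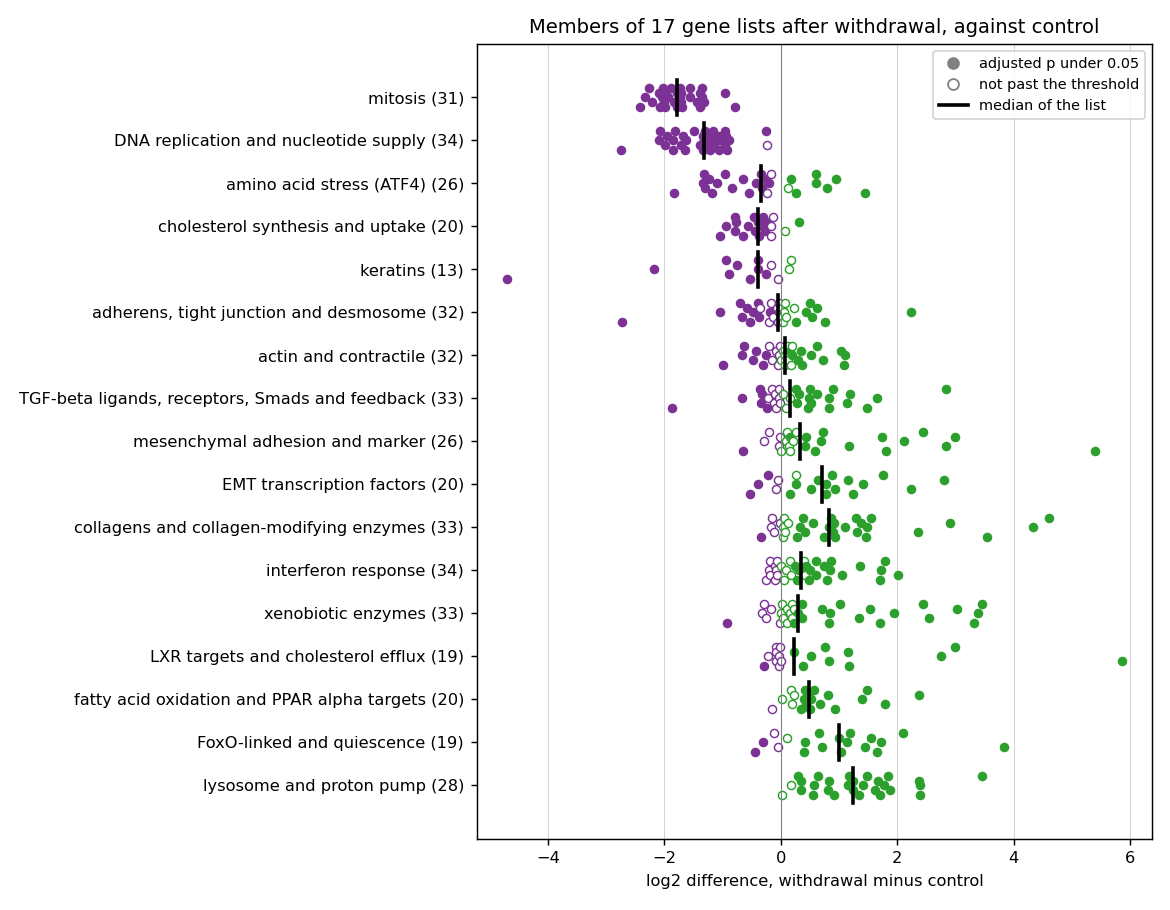
Log2 difference between withdrawal and control (horizontal axis) of each measured member of 17 gene lists (vertical axis, number measured in brackets), with filled points for adjusted p under 0.05, open points for the rest and a black line at the list's median. Mitosis and replication genes lie left of 0 and lysosomal genes right of it, while junction and contractile genes spread to both sides.

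The immediate early genes, which answer growth and stress signals within minutes, were split. Egr1 stood at 7.55 and 7.60 on the control arrays, 7.72 and 7.72 under TGF-β and 11.95 and 11.98 after withdrawal, the withdrawal arrays being above the other 4 (difference 4.39 ± 0.0501 SE, adjusted p = 1.52e-06). Fos and Egr2 were higher by 2.17 and 1.997, while Ier3, an early anti-apoptotic gene, and the AP-1 partner Fosl1 were lower (-1.67 and -0.97). In the list 11 of 23 were higher and 6 lower (median 0.30, and 0.16 and -0.08 with the spike scalings, the last with 10 higher and 10 lower). The MAP kinase phosphatases Dusp1 and Dusp4 were higher by 2.11 and 1.42, and Dusp10 and Dusp5 lower (-1.002 and -0.73). Of 17 ERK feedback genes, 4 were higher and 7 lower (median -0.15, and -0.29 and -0.53 with the spike scalings, the last with 2 higher and 12 lower). Of 22 YAP and TEAD targets, 10 were higher and 8 lower (median -0.12, and -0.26 and -0.50 with the spike scalings, the last with 3 higher and 12 lower), with F3, the coagulation starter tissue factor, lower (-2.31) and the stress gene Gadd45a higher by 2.20. Dusp10 differed by -0.66 as the mean of probe sets.

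Growth factor, Notch and Wnt receptors also differed. Fgfr1, the FGF receptor of mesenchyme, stood at 6.36 and 6.59 on the control arrays, 9.51 and 9.48 under TGF-β and 9.32 and 9.32 after withdrawal. Fgfr3, an epithelial form, stood at 7.79 and 7.84 on the control arrays, 6.65 and 6.38 under TGF-β and 6.43 and 6.02 after withdrawal. In both genes the withdrawal arrays lay apart from control, near or overlapping the TGF-β arrays. Igfbp4, which binds insulin-like growth factors, fell by 2.50, whereas Igfbp3 and the clearing receptor gene Igf2r were higher by 1.66 and 2.06. Notch1 stood at 8.76 and 8.72 on the control arrays, 7.33 and 7.54 under TGF-β and 10.70 and 10.70 after withdrawal, below control under TGF-β and above it after withdrawal (adjusted p = 1.33e-05), and Notch3 was higher by 1.85. The Notch ligand Jag1 showed the opposite order, 11.06 and 11.02 on the control arrays, 12.07 and 12.04 under TGF-β and 10.05 and 10.23 after withdrawal, and the Notch target genes Hey1 and Hes1 were lower (-0.79 and -0.52). In the Notch list 4 of 18 were higher and 7 lower (median -0.10, and -0.24 and -0.48 with the spike scalings, the last with 2 higher and 13 lower). The Frizzled receptors of Wnt ligands Fzd1, Fzd8 and Fzd6 were higher by 1.67, 1.54 and 1.03, with 20 of 33 Wnt pathway genes not past the threshold (median 0.00, and -0.14 and -0.38 with the spike scalings, the last with 4 higher and 22 lower). Fgfr1, Fgfr3, Igfbp4, Notch3, Fzd8 and Fzd6 differed by 1.72, -1.01, -1.41, 1.21, 0.77 and 0.61 as the mean of probe sets. Fgfr1 and Notch3 differed by 0.60 and 0.56 without probe sets of shared or repeated sequence.

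Several genes crossed control, being on one side of it under TGF-β and on the other after withdrawal. Il11, a cytokine of the IL-6 family and a known TGF-β target, stood at 8.24 and 8.29 on the control arrays, 11.51 and 11.47 under TGF-β and 5.96 and 5.50 after withdrawal (withdrawal minus control -2.54 ± 0.143 SE, adjusted p = 4.07e-05). Ptgs2, the inducible cyclooxygenase of prostaglandin synthesis, stood at 10.17 and 10.14 on the control arrays, 12.18 and 12.10 under TGF-β and 8.32 and 8.39 after withdrawal (adjusted p = 6.91e-06). Both were highest under TGF-β and lowest after withdrawal. In the other direction, Serpina1c, an α1-antitrypsin gene, stood at 6.34 and 6.43 on the control arrays, 5.38 and 5.19 under TGF-β and 10.47 and 10.54 after withdrawal. Sult1c2, a sulfotransferase, stood at 7.88 and 7.75 on the control arrays, 5.46 and 5.54 under TGF-β and 11.19 and 11.20 after withdrawal. Cp, the copper carrier ceruloplasmin, stood at 10.50 and 10.56 on the control arrays, 7.996 and 8.07 under TGF-β and 12.79 and 12.79 after withdrawal. These were lowest under TGF-β and highest after withdrawal, and the Serpina1 genes are near-identical, so Serpina1c is uncertain. Mme, the cell surface peptidase neprilysin, and Maf, a bZIP transcription factor, followed the same order, with withdrawal differences of 2.36 and 2.25 and TGF-β differences of -1.22 and -1.32 from control. Mme and Maf differed by 1.57 and 1.203 as the mean of probe sets.

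Some secretory, detoxifying and apical genes of differentiated epithelium were far above control, while the share of higher genes in the apical list was no larger than that of all genes. Alb (albumin) stood at 6.34 and 6.25 on the control arrays, 5.96 and 5.91 under TGF-β and 9.52 and 9.56 after withdrawal. Enpep, the apical aminopeptidase A, stood at 3.83 and 3.91 on the control arrays, 3.84 and 3.70 under TGF-β and 8.72 and 9.003 after withdrawal. Both were high on the withdrawal arrays and low on the other 4. Of 30 brush border and apical enzyme genes, 6 were higher and 6 lower (median -0.06, and -0.20 and -0.44 with the spike scalings, the last with 3 higher and 23 lower), against 21.7% and 23.6% of all genes. Of 28 plasma and secretory protein genes, 10 were higher and 6 lower (median -0.02, and -0.16 and -0.40 with the spike scalings, the last with 9 higher and 16 lower), with transthyretin (Ttr) higher by 1.94 and α-fetoprotein (Afp) lower (-1.34). Of 33 xenobiotic enzymes, 18 were higher, 11 of them by at least 1 (5.06% of all genes), and 1 lower (median 0.29, and 0.15 and -0.09 with the spike scalings, the last with 14 higher and 9 lower). Gstm1, a glutathione transferase, stood at 7.69 and 7.66 on the control arrays, 8.06 and 8.02 under TGF-β and 11.09 and 11.17 after withdrawal, though close paralogs make it uncertain. Cyp1b1, a P450 enzyme, stood at 9.56 and 9.61 on the control arrays, 11.25 and 11.30 under TGF-β and 12.89 and 12.94 after withdrawal. Ephx1, an epoxide hydrolase, was higher by 3.03, while Ephx2 fell by 0.92. Xdh, xanthine dehydrogenase, an enzyme of purine breakdown that also serves milk fat secretion, stood at 5.67 and 5.58 on the control arrays, 5.60 and 5.44 under TGF-β and 9.63 and 9.66 after withdrawal. The milk protein genes Csn2, Wap and Lalba did not pass (-0.03, 0.06 and 0.05). Ttr and Afp differed by 3.62 and -0.78 as the mean of probe sets.

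Among nuclear receptors, 9 of 21 were higher and 1 lower (median 0.19, and 0.05 and -0.19 with the spike scalings, the last with 6 higher and 10 lower). Vdr, the vitamin D receptor, stood at 6.31 and 6.35 on the control arrays, 7.90 and 7.86 under TGF-β and 8.29 and 8.43 after withdrawal. The glucocorticoid receptor gene Nr3c1 was higher by 1.19. Fatty acid oxidation genes were higher in 15 of 20 cases and lower in 0 by limma's adjusted p (0 lower at an unadjusted p under 0.05, median 0.48, and 0.34 and 0.11 with the spike scalings, the last with 7 higher and 2 lower), with Cpt1a, the carnitine transferase that admits fatty acids to mitochondria, at 1.39 and the coactivator gene Ppargc1a at 1.47. Pdk4, which restrains glucose oxidation, stood at 5.23 and 5.72 on the control arrays, 8.49 and 8.41 under TGF-β and 7.79 and 7.91 after withdrawal. The glycolytic genes Ldha and Hk2 were lower (-0.96 and -0.79) and Pfkp was higher by 2.004. In the list of glycolysis and hypoxia genes together, 7 of 23 were higher and 11 lower (median -0.17, and -0.31 and -0.55 with the spike scalings, the last with 4 higher and 14 lower). Oxidative phosphorylation subunits showed small differences in both directions, 10 higher and 11 lower of 33 (median -0.03, and -0.17 and -0.41 with the spike scalings, the last with 1 higher and 21 lower), none by 1 or more. Pfkp differed by 0.91 as the mean of probe sets.

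Amino acid synthesis and import genes governed by the stress factor ATF4 were lower in 16 of 26 cases and higher in 7 (median -0.33, and -0.47 and -0.71 with the spike scalings, the last with 3 higher and 18 lower). Mthfd2, a mitochondrial folate enzyme of dividing cells, stood at 10.50 and 10.46 on the control arrays, 10.61 and 10.72 under TGF-β and 8.56 and 8.74 after withdrawal (adjusted p = 1.59e-05). Psph, the last enzyme of serine synthesis, and Slc7a5, a leucine importer, were lower (-1.33 and -1.30), and Vldlr, a lipoprotein receptor, was higher by 1.44. Chaperones differed in sign, Hsph1 and Hspd1 lower (-0.86 and -0.64) and the small heat shock gene Hspb1 higher by 1.32, with 5 of 14 higher and 7 lower (median -0.10, and -0.24 and -0.48 with the spike scalings, the last with 4 higher and 8 lower). The metallothionein genes Mt1 and Mt2, which bind zinc and copper, were higher by 1.53 and 1.56, and haem oxygenase (Hmox1) by 1.66. Mt1 differed by 0.82 without probe sets of shared or repeated sequence.

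Defence genes were higher in part. C1s1 and C1ra, the proteases of the first complement component, were high on the withdrawal arrays alone of these 6. C1s1 stood at 5.16 and 5.27 on the control arrays, 4.80 and 5.10 under TGF-β and 9.12 and 9.07 after withdrawal. C1ra stood at 6.65 and 6.82 on the control arrays, 6.52 and 6.55 under TGF-β and 10.005 and 9.96 after withdrawal. Of 16 complement genes, 6 were higher and 2 lower (median 0.07, and -0.07 and -0.31 with the spike scalings, the last with 2 higher and 10 lower). Of 34 interferon response genes, 18 were higher and 0 lower by limma's adjusted p, with 2 lower at an unadjusted p under 0.05 (median 0.35, and 0.21 and -0.03 with the spike scalings, the last with 10 higher and 12 lower). The MHC class I genes H2-K1 and H2-D1, which present peptides to T cells, were higher by 2.01 and 1.79, although near-identical copies make them uncertain, and the peptide loader Tapbp by 1.70. The classical induced genes Mx1, Oas1a and Rsad2 did not pass (0.16, -0.10 and -0.11). Ifit2, also induced by interferon, was higher by 1.72 on its brightest probe set. Of cytokines, chemokines and receptors, 16 of 36 were higher and 8 lower (median 0.14, and 0.00 and -0.23 with the spike scalings, the last with 10 higher and 18 lower). The CXCL12 receptor gene Cxcr4 stood at 4.10 and 3.71 on the control arrays, 4.06 and 4.25 under TGF-β and 6.56 and 6.83 after withdrawal, so that ligand and receptor transcripts were both above control. The monocyte chemokine Ccl7 was higher by 2.50 and the alarmin Il33 fell by 1.55. H2-K1 differed by 0.87 as the mean of probe sets.

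Chromatin genes moved both ways. The maintenance methyltransferase Dnmt1 and its partner Uhrf1, both tied to replication, were lower (-1.15 and -1.69), as was the Polycomb methyltransferase Ezh2 (-1.07), while its relative Ezh1, known from resting cells, was higher by 0.88, but by 0.07 and with no call when probe sets of shared or repeated sequence were left out. Hdac9, a class IIa deacetylase, stood at 3.90 and 3.62 on the control arrays, 5.39 and 5.20 under TGF-β and 6.81 and 6.95 after withdrawal. Hdac5 and the SWI/SNF ATPase Smarca2 were higher by 1.33 and 1.62. Of 32 measured, 11 were higher and 12 lower (median -0.04, and -0.18 and -0.42 with the spike scalings, the last with 6 higher and 19 lower). Cytosolic ribosomal protein genes did not pass in 14 of 17 cases (median 0.03, and -0.11 and -0.35 with the spike scalings, the last with 0 higher and 13 lower). Ezh1 and Hdac9 differed by 0.31 and 1.499 as the mean of probe sets.

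Markers of other cell types were compared as lists, and their part in the results was not tested. Of 14 macrophage and leukocyte markers, 2 were higher and 2 lower. The log2 of their summed level was 11.70 to 11.71 on the control arrays and 11.80 to 11.85 on the withdrawal arrays. That sum is mostly Cd14, 1 of the higher genes, at 11.22 and 11.24 in control and 11.48 and 11.54 after withdrawal. The mean log2 level of the list went the other way, 6.007 to 6.01 in control and 5.882 to 5.911 after withdrawal. The pan-leukocyte gene Ptprc was at 3.79 and 3.93 in control and 3.84 and 3.82 after withdrawal, Mrc1, a mannose receptor, fell by 2.27, and Cd68, a lysosomal glycoprotein, was higher by 0.88. Of 12 endothelial markers 0 passed limma's adjusted threshold, and 1 were higher and 2 lower at an unadjusted p under 0.05, with summed levels of 9.40 to 9.42 and 9.34 to 9.37 in control and withdrawal. Of 8 adipocyte markers 1, Lipe, was higher (0.66, and 0.27 with no call as the mean of its probe sets), with summed levels of 9.12 to 9.20 and 9.22 to 9.28. The endothelial gene Pecam1 was at 4.84 and 4.63 in control and 4.49 and 4.57 after withdrawal, and the adipocyte gene Adipoq at 3.77 and 3.77 and at 3.69 and 3.96.

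Large decreases outside these groups were those of Dynap, an apoptosis regulator, at -2.68, Gldc, the glycine decarboxylase, at -2.43, and Elmod1 and Vstm5 at -2.46 and -2.44. Tnnt2, cardiac troponin T, was at -2.85 on its brightest probe set but at 0.05 when probe sets with shared or repeated sequences were left out. Retinoid genes passed in 45.5% of cases, near the 45.3% of all genes, where 21.7% were higher and 23.6% lower. Of 22 measured, 7 were lower and 3 higher (median -0.06, and -0.20 and -0.43 with the spike scalings, the last with 2 higher and 16 lower). Aldh1a1, which makes retinoic acid and marks some mammary progenitors, was at 9.84 and 9.94 on the control arrays, 7.32 and 7.16 under TGF-β and 8.03 and 8.005 after withdrawal.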

How the data were processed

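RNA of NMuMG cells was measured on 6 single-colour mouse arrays, 2 each of control, TGF-β and withdrawal. The deposited values are log2 levels per probe set, made by the authors with RMA, per the submitters' processing notes. The software version is not given in the sources used here, nor which arrays were normalised together. Of 45101 probe sets, 34945 had 1 annotated symbol, 932 several and 9160 none, and 64 were controls. Each gene was read from its brightest probe set, by the mean of all 6 arrays, which gave 18193 genes, 9010 of them with several probe sets. No filter on low values was applied, and precision is limited by the number of arrays. A linear model with 1 mean per group (limma 3.58.1 in R 4.3.3, with empirical Bayes moderation) was tested on simulated data and fitted to all 6 arrays, and p-values were adjusted over all genes by Benjamini-Hochberg. Tables and figures used Python 3.11.15, pandas 2.3.3 and matplotlib 3.10.9.

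Members and the 52 gene lists were chosen with earlier results of these data known. The rule named the 15 largest called differences in each direction whose arrays did not overlap, with the higher group at or above the median gene, 24 fixed genes (23 measured), up to 3 called genes per list and direction, and the 10 largest per direction apart from both groups, remaining, or past control. The 54 other genes given were chosen after their values were seen. Windows of 250 bases before to 50 after a start (RefSeq, GRCm38.p6) were held for 14452 genes, with 18109 windows. The 19 patterns searched were the E-box CACGTG with its longer forms TCACGTG and then TCACGTGA or else GTCACGTG, the CHR element TTTGAA, the E2F forms TTGGCGC (also within TTTGGCGC) with TTTCGCGC besides TTCCCGC, the CCAAT box, the CHR-like CTTTAA, the CArG box of serum response factor, the GC box GGGCGG, the CRE element TGACGTCA, the AP-1 element TGAGTCA, repeats of GGTCA at 4 bases (in a long and a short form, one within the other), the LXR-type repeat and the forkhead TGTTTAC. Longer E-box forms contain the shorter ones. Those shown were chosen after the matches were seen. Alternatives were a replicate block, an intensity trend, a filter on dim genes, other probe set choices, other scalings, the 4 arrays alone and each array left out.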

Additional observations from a re-analysis of the deposited data

Results flagged for a closer look

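Control probe sets for 18S ribosomal RNA, which the comparison of genes did not use, gave a higher signal on the withdrawal arrays than on the control arrays. The log2 difference was 1.04 for the 3′ probe set, 0.683 for the 5′ probe set and 1.17 for the middle one. The part of this in other values was not tested.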

How the results depend on the processing

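With poly-A spike scaling 1967 genes were higher, and with hybridization spike scaling 1655 were higher and 12634 lower, 493 and 1541 of them by at least 1. Under the other settings the counts stayed within 1.5 times those reported. Leaving out 1 array gave 3259 to 3873 higher and 3389 to 4200 lower genes, and 905 to 949 and 626 to 662 by at least 1, a lone array being assumed to vary like the other groups. With the replicate number as a block, 3800 genes were higher and 4108 lower, 920 and 634 of them by at least 1. Whether same-numbered samples were handled together is not given in the labels. Deviations of same-numbered arrays correlated by 0.0067, -0.0038 and -0.016 between the group pairs, which shows no shared deviation and cannot settle how they were handled. The sign of the difference between withdrawal and control turned with hybridization spike scaling for 18 genes, Vim -0.21, Llgl1 -0.061, Foxa1 -0.054, Tfap2a -0.11, Tspan1 -0.048, Insig1 -0.070, C8g -0.019, Ndufa4 -0.043, Rps15 -0.15, Cd14 -0.093, Adipoq -0.32, Cdkn1a -0.16, Cldn7 -0.31, Col5a3 -0.32, Ctsl -0.36, Lalba -0.33, Mitf -0.074 and Wap -0.32, as every difference is shifted down there. It turned without probe sets of shared or repeated sequence for Tnnt2 0.046, Tspan1 -0.16 and Slc15a2 0.18, and as the mean of probe sets for Hmga2 0.048, which are read from other probe sets. No other setting turned a named gene. Levels near background limit what dim genes such as Ptprc can show.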

Other observations

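Mammary lineage genes, which separate the milk-secreting luminal cells from the contractile basal cells, moved both ways. Of all genes 45.3% passed, 21.7% higher and 23.6% lower. The share past the threshold was 37.5% for milk and luminal genes and 54.5% for basal and stem genes. For the epithelial regulators and the epithelial surface genes below it was 36.4% and 44.4%. Of 24 measured milk and luminal genes, 5 were higher and 4 lower (median 0.05, and -0.09 and -0.33 with the spike scalings, the last with 3 higher and 16 lower), with Stat5a, the transcription factor of the prolactin response, higher by 1.09 and Csn3, κ-casein, lower (-0.65). Of 22 basal and stem genes, 5 were higher and 7 lower (median -0.01, and -0.15 and -0.39 with the spike scalings, the last with 3 higher and 14 lower), with Sox9 and Procr, linked to mammary progenitors, higher by 0.92 and 0.99 and the basal keratin Krt14 lower (-0.39). Epithelial transcription and splicing regulators were lower in 6 of 22 cases and higher in 2 (median -0.16, and -0.30 and -0.54 with the spike scalings, the last with 0 higher and 18 lower). Foxa2, a forkhead factor of endodermal epithelia, stood at 10.63 and 10.68 on the control arrays, 7.80 and 8.11 under TGF-β and 9.87 and 9.88 after withdrawal, and the epithelial factor Elf3 was lower (-0.62). Of 18 epithelial surface and protease inhibitor genes, 2 were higher and 6 lower (median -0.10, and -0.24 and -0.47 with the spike scalings, the last with 1 higher and 16 lower), Mal2 and Lsr among the lower (-1.13 and -1.08). Csn3, Sox9, Krt14 and Lsr differed by -0.39, 0.52, -0.17 and -0.67 as the mean of probe sets. Krt14 differed by -0.16 without probe sets of shared or repeated sequence.

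Matrix remodelling genes were mostly higher among those called. Of 26 matrix proteases and inhibitors, 11 were higher and 4 lower (median 0.16, and 0.02 and -0.22 with the spike scalings, the last with 7 higher and 12 lower). Mmp14, a membrane-bound collagenase, and Timp3, a protease inhibitor held in the matrix, were higher by 1.55 and 1.79, and the urokinase receptor gene Plaur fell by 1.27. Of 28 other matrix genes, 12 were higher and 5 lower (median 0.00, and -0.14 and -0.38 with the spike scalings, the last with 7 higher and 15 lower), with Matn2, a matrilin, and Mgp, an inhibitor of calcification, higher by 2.75 and 1.93. Growth factor and receptor genes were higher in 12 of 32 cases and lower in 9 (median -0.05, and -0.19 and -0.43 with the spike scalings, the last with 6 higher and 18 lower). Among prostaglandin genes, Ptgds, which makes prostaglandin D, and the receptor gene Ptger4 were higher by 1.32 and 1.19 (2 higher and 5 lower of 16, median -0.06, and -0.20 and -0.43 with the spike scalings, the last with 2 higher and 11 lower). Unfolded protein response genes were higher in 10 of 23 cases and lower in 4 (median 0.12, and -0.02 and -0.26 with the spike scalings, the last with 4 higher and 11 lower), with the sensor gene Atf6 higher by 1.33 and Manf lower (-0.77). Antioxidant genes of the Nrf2 list were higher in 10 of 24 and lower in 8 (median 0.05, and -0.09 and -0.32 with the spike scalings, the last with 5 higher and 13 lower), with glutathione reductase (Gsr) lower (-0.76) and catalase (Cat) higher by 0.84. Of 27 fatty acid synthesis and lipid droplet genes, 11 were higher and 9 lower (median -0.02, and -0.16 and -0.40 with the spike scalings, the last with 4 higher and 16 lower), the synthase gene Fasn being lower (-0.62). Ptgds differed by 2.20 as the mean of probe sets. Ptgds and Cat differed by 3.08 and 1.56 without probe sets of shared or repeated sequence.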
